A study of Mus musculus with 2 samples.

Results

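The mir-23/27/24 hairpins lie in 2 clusters of the mouse genome, with Mir23a, Mir27a and Mir24-2 on chromosome 8 and Mir23b, Mir27b and Mir24-1 on chromosome 13. These 6 genes were chosen by name out of the 2202 miRNA genes counted. They were measured by microRNA-seq, in which short RNAs are sequenced, in total RNA from heart tissue of male B6CASTF1/J mice, a hybrid between the B6 and CAST strains, at an age of 36 days. A second free-text label gives the same age number in months. There is 1 group of 2 libraries, numbered as replicates 1 and 2 and as different males under a single donor record, and the labels name no treatment, no altered gene and no second tissue. No contrast between conditions was therefore possible, and an SD over n = 2 measures the spread between these samples.

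A mir-23/27/24 cluster is transcribed as a single long primary RNA from which the hairpins are cut, and each hairpin yields a mature miRNA from its 5' or 3' arm. The mature miRNA pairs with messenger RNAs mainly through its seed, bases 2 to 8, and lowers their translation and stability. The paralogous clusters are known from endothelial cells and blood vessel growth. In heart muscle, miR-23a is known from hypertrophic growth and miR-24 from calcium handling and cell survival.

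The mature sequences show what the 6 hairpins share. All 6 hairpins and 11 mature arms were matched in RefSeq (GRCm38.p6), with no mature entry used for miR-23b-3p. The 3p arms are printed because their seeds define 3 target families, with the seed in capitals.
miR-23a-3p: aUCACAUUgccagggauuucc
miR-27a-3p: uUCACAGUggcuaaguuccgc
miR-27b-3p: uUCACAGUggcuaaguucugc
miR-24-3p: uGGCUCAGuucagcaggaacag
The mir-27 paralogs have the same seed and differ at 1 of 21 bases, C19U, with positions counted from 1 at the 5' end and the base of miR-27a-3p given first. The stretch of the Mir23b hairpin that starts like miR-23a-3p also differs from it at 1 of 21 bases, U19A. The seeds of miR-23a-3p and miR-27a-3p differ from each other at 1 base, U7G. The mature miR-24-3p is identical from both loci, so its reads cannot be told apart by origin. Apart from the paralogs, the seed of miR-24-3p is carried by the mature miRNAs of 4 other genes, Mir5124b, Mir6369, Mir6410 and Mir6413. Each of these had 0 reads in both libraries. By counting error alone a count of 0 leaves room for a level of 1.5 CPM (reads per 1000000 assigned reads) in library 1 and of 1.61 CPM in library 2, and only where the reads of a locus map to 1 place.

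The 5p arms of the mir-24 hairpins are the part of the mature sequences that differs between those loci, and they are printed with their shared seed in capitals.
miR-24-1-5p: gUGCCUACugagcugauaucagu
miR-24-2-5p: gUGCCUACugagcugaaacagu
Neither 5p arm occurs whole in another counted hairpin. The tables count reads per hairpin, so the arms were not separated.

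The hairpins are printed next, because the length of sequence shared between paralogs bears on which reads can be placed on 1 gene. Capitals mark the longest run of bases identical in the hairpin and its paralog.
Mir23a: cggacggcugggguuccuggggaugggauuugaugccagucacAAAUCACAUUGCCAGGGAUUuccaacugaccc
Mir23b: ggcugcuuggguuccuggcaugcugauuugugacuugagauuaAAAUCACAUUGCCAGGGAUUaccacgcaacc
Mir27a: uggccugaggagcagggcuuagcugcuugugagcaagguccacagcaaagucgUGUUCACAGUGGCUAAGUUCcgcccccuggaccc
Mir27b: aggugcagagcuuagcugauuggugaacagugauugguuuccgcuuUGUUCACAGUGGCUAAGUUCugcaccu
Mir24-2: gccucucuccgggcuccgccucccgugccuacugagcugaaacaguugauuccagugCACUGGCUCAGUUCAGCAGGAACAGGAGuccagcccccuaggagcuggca
Mir24-1: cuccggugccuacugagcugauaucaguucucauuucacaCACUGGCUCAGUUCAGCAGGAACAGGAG
The shared run is 20 nt in the mir-23 pair and 20 nt in the mir-27 pair, each shorter than the 21 nt of the mature 3p arm. In the mir-24 pair it is 28 nt and covers the whole 3p arm. Over a global alignment the mir-23 pair is identical at 73.8% of columns, the mir-27 pair at 61.1% and the mir-24 pair at 54.5%. The mir-24 pair therefore has the lowest identity over the hairpin and the longest identical run. Reads with more than 1 mapping position, which these tables give to no gene, made up 41.5% of library 1 and 42.9% of library 2. A read of the whole miR-24-3p matches both mir-24 loci and so is given to neither. How many such reads there were is unknown, and the counts of Mir24-1 and Mir24-2 leave them out.

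The clusters keep the same order of hairpins but differ in spacing and surroundings. In mm10 coordinates with the GENCODE M21 annotation, Mir23a (ENSMUSG00000065611.1) lies at chr8:84208518-84208592, Mir27a (ENSMUSG00000065444.1) at chr8:84208672-84208758 and Mir24-2 (ENSMUSG00000065541.1) at chr8:84208815-84208921, all on the plus strand. These hairpins span 404 nt, outside any annotated protein-coding gene. The end of Mir24-2 overlaps the start of the exon of the long noncoding RNA gene Gm26532. On chromosome 13, Mir23b (ENSMUSG00000065599.2) lies at chr13:63300484-63300557, Mir27b (ENSMUSG00000065475.2) at chr13:63300712-63300784 and Mir24-1 (ENSMUSG00000105904.1) at chr13:63301208-63301275, also on the plus strand, over a span of 792 nt. All 3 lie within the aminopeptidase gene Aopep, named 2010111I01Rik in this annotation, on its own strand, and within Fancc, a Fanconi anaemia gene, on the opposite strand. Mir23b overlaps no annotated exon. Mir27b overlaps an exon of 1 Aopep transcript and Mir24-1 overlaps exons of several, so both can be intronic in other transcripts. On the minus strand, Mir3074-2 covers 83 nt of Mir24-2 and Mir3074-1 covers all 68 nt of Mir24-1.

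**Figure D1:**
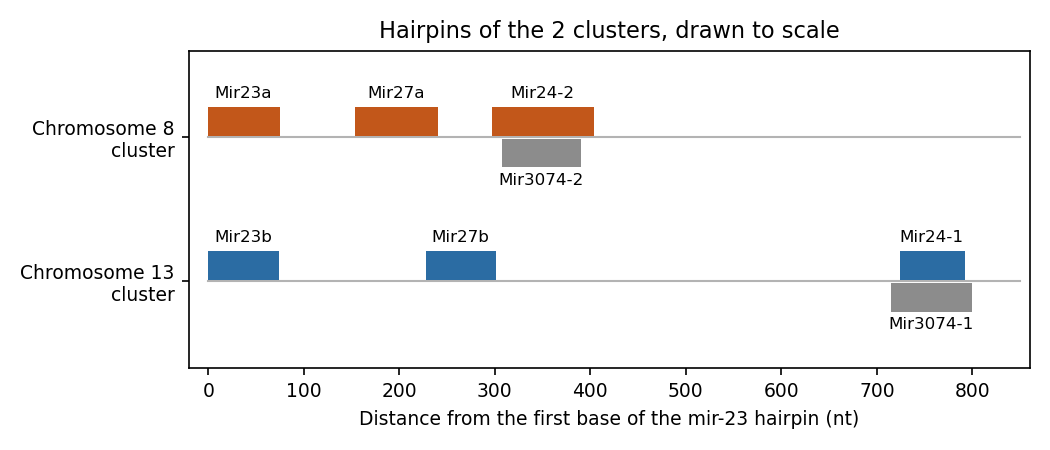
Map of the 2 clusters, with the distance in nt from the first base of the mir-23 hairpin on the horizontal axis, hairpins of the plus strand above each line and miRNA genes of the minus strand in grey below it. The chromosome 8 cluster is the shorter, at 404 nt against 792 nt, and in each cluster only the mir-24 hairpin has a miRNA gene opposite.

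Both mir-23 hairpins were among the most abundant miRNA genes of the heart libraries, while the mir-24 hairpins of the same clusters held few counted reads. Levels are read counts on the gene's own strand per 1000000 such reads assigned to any miRNA gene of the library (CPM). Library 1 had 1999362 assigned reads and library 2 had 1862526. A mature miRNA gives reads of its own length whatever the size of the hairpin, so CPM were not divided by length in the main values.

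Mir23b stood at 57868 CPM in library 1 and 58035 CPM in library 2, a mean of 57952 ± 118 (SD, n = 2). Its exact Poisson 95% intervals, which cover counting error only, were 57535 to 58202 and 57690 to 58382, so the libraries were not distinguishable when scaled to assigned reads. With the other scalings given below, Mir23b was higher in library 2 by 0.19 on the log2 scale (adjusted p = 3.59e-220 with TMM factors, exact binomial test). The gene ranked 4 in library 1 and 6 in library 2. Mir23a stood at 51422 CPM in library 1 and 32990 CPM in library 2, a mean of 42206 ± 13034. It was the lower of the paralogs in both libraries, and its own libraries were further apart than its counting intervals (51109 to 51738 and 32729 to 33252). It ranked 6 and 12.

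Mir27b stood at 4058 CPM in library 1 and 6441 CPM in library 2, a mean of 5249 ± 1685, and ranked 31 and 22. Mir27a stood at 1180 and 2156 CPM, a mean of 1668 ± 690, and ranked 67 and 43. Both mir-27 hairpins were higher in library 2, and the chromosome 13 copy was the higher in each library. miR-27 is known to target regulators of angiogenesis and of lipid metabolism.

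Mir24-2 stood at 233 CPM in library 1 (466 reads) and 191 CPM in library 2 (355 reads), a mean of 212 ± 30.0. Mir24-1 stood at 75.5 CPM (151 reads) and 133.7 CPM (249 reads), a mean of 105 ± 41.1. In these counts the chromosome 8 copy had the higher level, the reverse of the other families. Whole reads of the mature miRNA that Mir24-1 and Mir24-2 share are missing from both counts. Which locus makes more of that miRNA was therefore not tested. The order of Mir24-2 and Mir24-1 also rests on the scale, as given below. The ranks were 104 and 112 for Mir24-2 and 157 and 127 for Mir24-1.

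By mean level the order was Mir23b, Mir23a, Mir27b, Mir27a, Mir24-2 and Mir24-1, and for each neighbouring pair the lowest value of the higher gene exceeded the highest value of the lower gene. The steps in mean CPM were 1.37-fold from Mir23b to Mir23a, 8.04-fold to Mir27b, 3.15-fold to Mir27a, 7.87-fold to Mir24-2 and 2.03-fold to Mir24-1. With CPM divided by hairpin length, the order held in library 1, but in library 2 Mir24-1 (1.97 CPM per nt) exceeded Mir24-2 (1.78 CPM per nt), so the order of the mir-24 pair rests on the scale. The gap between the means of Mir23b and Mir23a was only slightly larger than the SD of Mir23a.

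**Figure D2:**
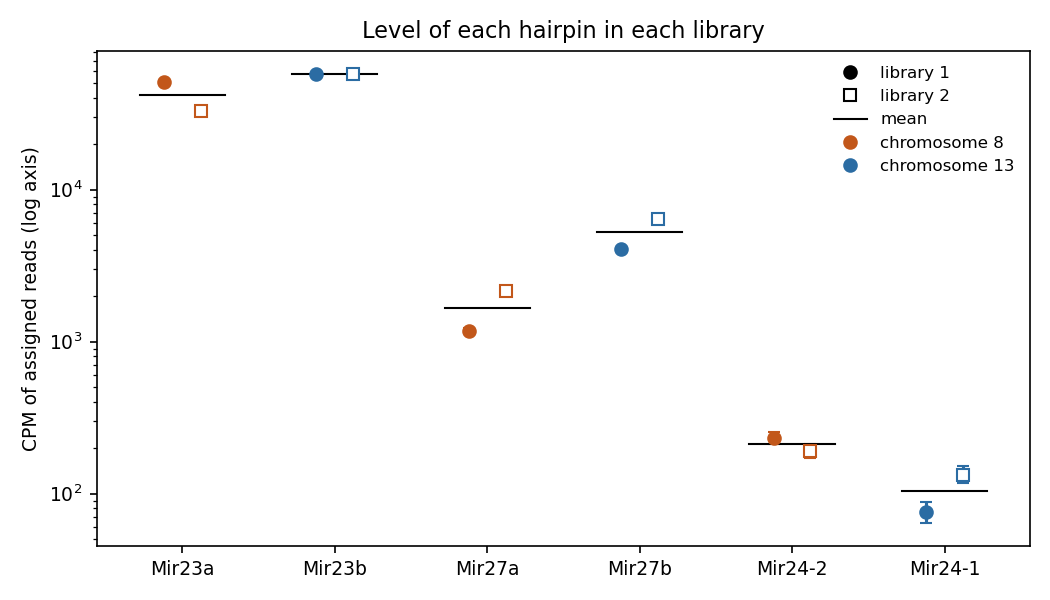
CPM of assigned reads on a log axis for each of the 6 hairpins, with library 1 as filled circles, library 2 as open squares, exact Poisson 95% intervals as bars (mostly smaller than the symbols) and the mean of both libraries as a line. Both mir-23 hairpins lie at 32990 CPM or higher, the mir-27 hairpins between 1180 and 6441 CPM and the mir-24 hairpins at 233 CPM or lower.

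The 6 genes took 11.5% of assigned reads in library 1 and 9.99% in library 2, a mean of 10.7% ± 1.05. The chromosome 13 cluster took 6.20% (exact Clopper-Pearson 95% interval 6.17 to 6.23) and 6.46% (6.43 to 6.50), a mean of 6.33% ± 0.184. The chromosome 8 cluster took 5.28% (5.25 to 5.31) and 3.53% (3.51 to 3.56), a mean of 4.41% ± 1.24. From library 1 to library 2 the total and the chromosome 8 share were lower, while the chromosome 13 share was slightly higher.

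Within each cluster the mir-23 hairpin made up nearly all counted reads. In the chromosome 8 cluster, Mir23a gave 97.3% of reads in library 1 and 93.4% in library 2, Mir27a gave 2.23% and 6.10%, and Mir24-2 gave 0.441% and 0.539%. In the chromosome 13 cluster, Mir23b gave 93.3% and 89.8%, Mir27b gave 6.54% and 9.97%, and Mir24-1 gave 0.122% and 0.207%. In both clusters the share of the mir-27 hairpin was larger in library 2, and that of the mir-23 hairpin smaller.

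Summed by paralog pair, the mir-23 hairpins held 10.9% and 9.10% of assigned reads and the mir-27 hairpins 0.524% and 0.860%. The mir-24 hairpins held 0.0309% and 0.0324%. The mir-24 sums were alike in the libraries, with overlapping exact 95% intervals (0.0285 to 0.0334 and 0.0299 to 0.0351), although the loci went in opposite directions. Whole reads of miR-24-3p are given to neither locus. The mir-24 sums therefore describe reads placed on 1 gene and do not measure the seed family of miR-24-3p.

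Ratios within a library need no scaling, and 10 were computed, 3 within each cluster, 3 between paralogs and 1 between the summed clusters. Each was compared between libraries with Fisher's exact test, two-sided, with Benjamini-Hochberg adjustment over the 10 ratios. This test compares these libraries on read counts and models no spread between samples, and the labels mention no molecular identifiers, so PCR copies count as separate reads.

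Mir23b exceeded Mir23a 1.13-fold in library 1 (exact 95% interval 1.12 to 1.13) and 1.76-fold in library 2 (1.74 to 1.78). The log2 ratio averaged 0.49 ± 0.46. The direction was the same in both, but the size differed by 1.56-fold, and the SD of the log2 ratio was nearly as large as its mean. Mir27b exceeded Mir27a 3.44-fold in library 1 (3.28 to 3.60) and 2.99-fold in library 2 (2.88 to 3.10). The log2 ratio averaged 1.68 ± 0.14. Of the paralog ratios this one differed least between libraries, by 1.15-fold (adjusted p = 2.56e-06, Fisher's exact test). Mir24-1 was at 0.324 of Mir24-2 in library 1 (0.268 to 0.390) and at 0.701 in library 2 (0.594 to 0.827), a 2.16-fold difference (adjusted p = 7.39e-10, Fisher's exact test). The summed chromosome 13 cluster exceeded the chromosome 8 cluster 1.17-fold and 1.83-fold, and the log2 ratio averaged 0.55 ± 0.45.

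On chromosome 8, both ratios that hold Mir27a differed by over 2-fold between the libraries. Mir23a exceeded Mir27a 43.6-fold in library 1 (41.8 to 45.4) and 15.3-fold in library 2 (14.8 to 15.8), a 2.85-fold difference with a -log10 adjusted p of 356.9 in Fisher's exact test. Mir27a exceeded Mir24-2 5.06-fold (4.58 to 5.60) and 11.3-fold (10.1 to 12.6), a 2.23-fold difference the other way (adjusted p = 1.38e-26, Fisher's exact test). Mir23a exceeded Mir24-2 221-fold and 173-fold, so these differed by 1.27-fold (adjusted p = 7.45e-04, Fisher's exact test). Whole reads of miR-24-3p are missing from Mir24-2. Its ratios therefore compare counted reads and not the levels of the mature miRNAs. Mir27a was the hairpin furthest out of step. Scaled to assigned reads, Mir23a and Mir24-2 were both lower in library 2. With the other scalings given below, Mir24-2 was not distinguishable between the libraries (adjusted p = 0.464, exact binomial test).

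On chromosome 13, Mir23b exceeded Mir27b 14.3-fold in library 1 (13.9 to 14.6) and 9.01-fold in library 2 (8.84 to 9.18), a 1.58-fold difference (adjusted p = 1.78e-209, Fisher's exact test). Mir23b exceeded Mir24-1 766-fold and 434-fold (adjusted p = 3.29e-08, Fisher's exact test). Mir27b exceeded Mir24-1 53.7-fold (45.7 to 63.5) and 48.2-fold (42.5 to 54.8), with overlapping intervals, and this was the 1 ratio of the 10 that did not pass (adjusted p = 0.304, Fisher's exact test). All ratios had the same direction in both libraries.

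**Figure D3:**
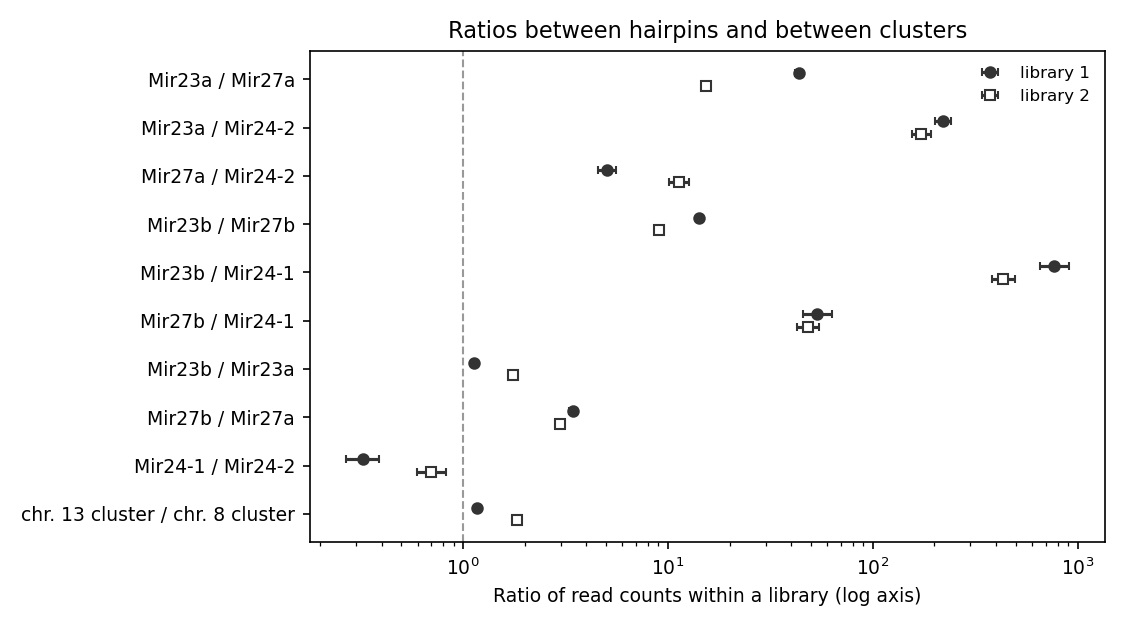
Ratios of read counts within a library on a log axis, for hairpins of the same cluster, for paralogs and for the summed clusters, with library 1 as filled circles, library 2 as open squares and exact 95% intervals as bars. The dashed line marks a ratio of 1, and Mir24-1 / Mir24-2 is the ratio that lies below it, at 0.324 and 0.701.

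Set beside other miRNA genes that neighbour each other, both clusters had a wide spread of counted levels. Same-strand runs with gaps of 10 kb or less, exactly 3 genes and a member at a mean of 100 CPM or more numbered 5, including both clusters. The highest gene exceeded the lowest 554-fold in the chromosome 13 cluster and 199-fold in the chromosome 8 cluster, in mean CPM. The other 3 runs gave 210-fold for Mirlet7a-1/Mirlet7f-1/Mirlet7d, 12.9-fold for Mir106b/Mir93/Mir25 and 1.66-fold for Mir99b/Mirlet7e/Mir125a. The lowest gene of the let-7 run, Mirlet7f-1, stood at 238 CPM, and 2 of the genes of that run share a stretch of 22 nt with another miRNA hairpin. In each mir-23/27/24 cluster 1 gene does so, the mir-24 hairpin, which was the lowest of its cluster. Whole reads of miR-24-3p are missing from the mir-24 counts. The 554-fold and 199-fold spreads are therefore those of reads placed on 1 gene. How much of the spreads the missing reads make up was not tested. The mir-23/27/24 clusters were the 2 runs in which counted levels fell from the first to the last hairpin. With 5 runs, and with those reads missing from the last hairpin, this is a description.

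**Figure D4:**
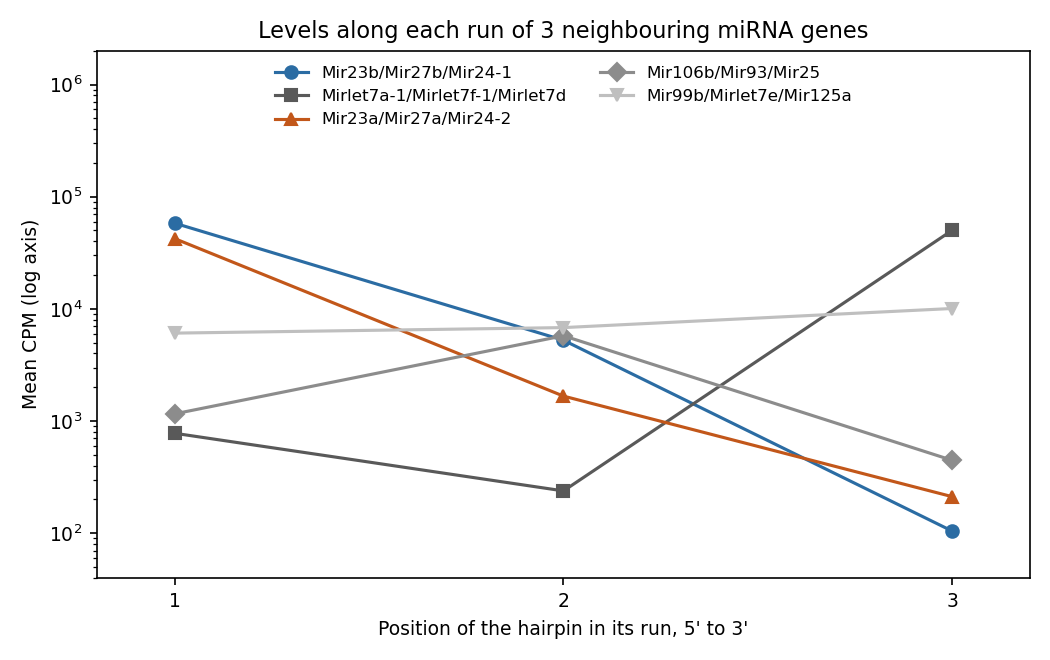
Mean CPM on a log axis at each position, 5' to 3', of the 5 runs of 3 neighbouring miRNA genes, with the chromosome 13 cluster in blue, the chromosome 8 cluster in orange and other runs in grey. Both mir-23/27/24 lines fall at each step, from 57952 to 105 CPM and from 42206 to 212 CPM, while Mir99b/Mirlet7e/Mir125a stays between 6078 and 10073 CPM. The last point of both mir-23/27/24 lines leaves out whole reads of miR-24-3p.

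The change of ratio between libraries was also placed among neighbouring genes. Over 26 pairs of adjacent genes with both at a mean of 100 CPM or more, Mir23a/Mir27a had the second-largest change after Mir15a/Mir16-1, which changed 3.26-fold. Mir27a/Mir24-2 ranked 5, Mir23b/Mir27b 11 and Mir27b/Mir24-1 23. The 22 other pairs had a median change of 1.33-fold, so the chromosome 8 pairs lay above it by 2.85-fold and 2.23-fold against 1.33-fold, and Mir27b/Mir24-1 below it at 1.12-fold.

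The libraries were then compared gene by gene. The split of a gene's reads between libraries was set against that of the assigned reads by a two-sided exact binomial test, with Benjamini-Hochberg adjustment over the 344 genes whose reads summed to 10 or more. This again compares 2 libraries on counting error, and no condition. A gene was called at an adjusted p under 0.05 and a difference of 2-fold or more. All 6 members were tested and 0 were called, against 17.2% of all tested genes (5.52% higher in library 2, 11.6% higher in library 1). Among genes whose mean reached 100 CPM, as that of each member did, 12.1% were called. By adjusted p alone 5 of 6 passed, against 54.1% of tested genes. Of the 141 genes whose mean reached 100 CPM, 80.1% passed by adjusted p alone, so the members' count is near that of genes of like depth. The 5 were 3 genes higher in library 2 (background 17.7%) and 2 higher in library 1 (background 36.3%).

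As log2 ratios of library 2 over library 1, with 0.5 added to each count, Mir27a was at 0.87 (adjusted p = 9.24e-123), Mir24-1 at 0.82 (adjusted p = 8.93e-08) and Mir27b at 0.67 (adjusted p = 3.77e-230), all by the exact binomial test. These 3 were higher in library 2, by 1.83-fold, 1.77-fold and 1.59-fold. Mir23b was at 0.00 (adjusted p = 0.611, exact binomial test). Mir24-2 was at -0.29 (adjusted p = 0.0102, exact binomial test). Mir23a was at -0.64, 1.56-fold lower in library 2, with a -log10 adjusted p of 1695. Among the 141 genes at 100 CPM or more the median size of a log2 ratio was 0.34, and Mir27a lay at percentile 85.1 of these sizes, Mir24-1 at 83.7, Mir27b at 75.9, Mir23a at 74.5, Mir24-2 at 44.0 and Mir23b at 1.42.

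Scaling moves all of these ratios together. The trimmed mean of M-values (TMM, edgeR) added 0.19 to each log2 ratio, which brought the median of tested genes from -0.19 to 0.00. With TMM, Mir27a (1.06, adjusted p = 2.10e-182) and Mir24-1 (1.01, adjusted p = 2.43e-11) passed both criteria, and DESeq2 size factors gave the same 2 calls. The background was 16% of tested genes with either scaling, with 8.14% in favour of library 2 and 7.85% in favour of library 1. Among genes at 100 CPM it was 11.3% with TMM. By adjusted p alone 5 of 6 again passed with TMM, against 50% of tested genes and 79.4% of those at 100 CPM. These 5 took in Mir23b and left out Mir24-2. Calls in favour of library 2 and library 1 numbered 19 and 40 with assigned totals, and 28 and 27 with TMM. Mir23a remained lower in library 2 with TMM (-0.45), Mir27b higher (0.86), Mir23b moved to 0.19 and Mir24-2 to -0.10 (adjusted p = 0.464, exact binomial test). Under each scaling Mir23a and Mir27a, neighbours on chromosome 8, went in opposite directions.

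**Figure D5:**
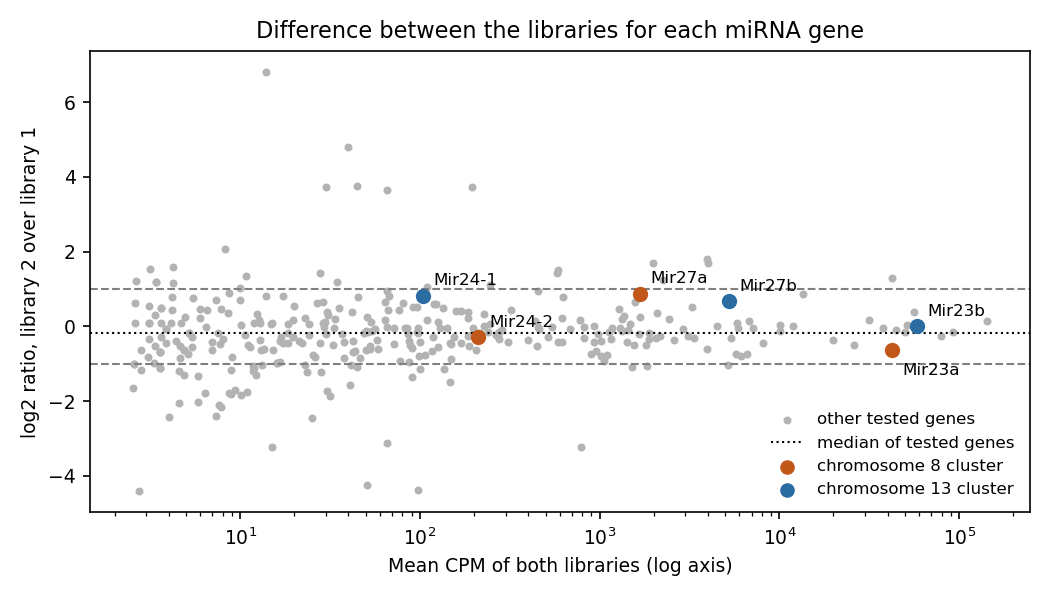
The log2 ratio of library 2 over library 1, scaled to assigned reads, against mean CPM on a log axis for the 344 tested genes, with the chromosome 8 genes in orange, the chromosome 13 genes in blue, dashed lines at 2-fold and a dotted line at the median of -0.19. All 6 genes lie within the dashed lines, Mir27a at 0.87 and Mir23a at -0.64.

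The opposite strand carried reads at both mir-24 loci, with a single read at Mir24-2. Antisense to Mir24-1 there were 55 reads in library 1 and 5 in library 2, which are the sense reads of Mir3074-1. They made up 26.7% (exact 95% interval 20.8 to 33.3) of the reads placed there on both strands in library 1 and 1.97% (0.642 to 4.53) in library 2. Reads of the whole miR-24-3p are missing from the sense count, and Mir3074-1 also shares 22 nt with another hairpin. These shares therefore describe reads placed on 1 gene and not the output of each strand. Mir3074-1 differed by a log2 ratio of -3.23 (adjusted p = 1.68e-10, exact binomial test), while Mir24-1 opposite it was at 0.82. Antisense to Mir24-2 there were 0 reads and 1 read. The other 4 hairpins had 0 antisense reads in both libraries. When both strands were counted together, Mir24-1 and Mir24-2 were listed at 0 in both libraries, since reads in overlapping genes were then ambiguous, and the counts of the mir-23 and mir-27 hairpins did not change.

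The genes nearest in level, by the distance of log2(CPM + 1) over both libraries, place the members among other heart miRNAs. Nearest to Mir23b were Mirlet7b at 51621 ± 1021 CPM and the endothelial Mir126a at 56371 ± 10533 CPM. Nearest to Mir23a were Mir139 at 44696 ± 2411 CPM and the smooth muscle Mir143 at 37774 ± 705 CPM. Mir27b lay nearest to Mir100 and Mir29a, and Mir27a to Mir195a and Mir342. Mir24-2 lay nearest to Mir330 and Mir671, and Mir24-1 to Mir503 and an entry named Snord43. With 2 libraries this likeness is one of level.

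The 20 listed miRNAs known from blood vessel growth, the setting best known for mir-23/27/24, were called about as often as tested genes at large. Of 17 tested, 0 were called higher in library 2 (background 5.52%) and 3 higher in library 1 (background 11.6%), with a median log2 ratio of -0.15 against -0.19 over all tested genes. The 3 were Mir222 (218 and 77.3 CPM, log2 ratio -1.49, adjusted p = 4.45e-30, exact binomial test) and, under the level set for naming and named after their values were seen, Mir296 and Mir218-2. With TMM, Mir218-2 was no longer called. Mir126a, the main endothelial miRNA, stood at 48924 and 63819 CPM and was not called.

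Of the 21 listed miRNAs known from heart muscle growth or wasting, 17 were tested. Higher in library 2 were 4 (Mir22, Mir21a, Mir499 and Mir29c) and higher in library 1 were 2 (Mir208a and Mir214), with a median log2 ratio of 0.22 against -0.19 over all tested genes. The background was 5.52% higher in library 2 and 11.6% in library 1. With TMM the first 4 were still called (background 8.14%) and Mir208a and Mir214 were not. Mir22, which promotes hypertrophic growth, stood at 24473 and 60488 CPM. Mir208a, made from an intron of a cardiac myosin gene, stood at 7004 and 3393 CPM, and Mir499, from another, at 1336 and 3141 CPM.

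Markers of the cells that heart tissue holds were also compared between the libraries. The 7 heart muscle miRNAs summed to 0.856% and 0.670% of assigned reads. Mir208a and Mir499 were well detected and went opposite ways, at log2 ratios of -1.05 and 1.23. Mir1a-2 had 115 and 102 reads, and both Mir133a loci and Mir1a-1 had 6 reads or fewer in each library. Both Mir1a and both Mir133a hairpins share 22 nt with another hairpin, so reads mapping to several places are missing from them and this sum does not measure miR-1 or miR-133a. Mir126a, the endothelial marker, was at 4.89% and 6.38%, and the 2 smooth muscle miRNAs at 3.95% and 3.87%. The 4 fibroblast miRNAs were at 0.248% and 0.120% (Mir199a-1 at 0). Nearly all of that sum was Mir214 (2471 and 1190 CPM). Mir199a-2 had 17 and 6 reads, and Mir199b went the other way, with 8 and 13 reads. The 3 erythroid miRNAs were at 0.245% and 0.197% and the 4 leukocyte miRNAs at 0.536% and 0.495%. Of the erythroid miRNAs, Mir451a had a log2 ratio of -0.74, while Mir144 (-0.03) and Mir486 (-0.04) hardly differed. Of the leukocyte miRNAs, Mir150 was higher in library 2 (0.45), while Mir142, Mir223 and Mir155 had negative log2 ratios. The 7 epithelial miRNAs were at 0.0460% and 0.0947%, and among them only Mir429 went the other way, with 32 and 19 reads. The liver miRNA Mir122 was at 0.0119% and 0.00134%, and the 2 skeletal muscle miRNAs at 0.00985% and 0.000537%. Of the 6 neuronal genes, 5 were at 0 in both libraries. All 6 neuronal hairpins and Mir199a-1 share 22 nt with another hairpin, so a count of 0 there sets no limit on their level. Several of these moved with library, in different directions. Their part in the differences of the mir-23/27/24 genes was not tested, and in bulk tissue fewer cells of a type and less RNA per cell cannot be told apart.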

How the data were processed

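The deposited tables, 1 per library, hold whole-number counts per miRNA gene, which the authors made on mm10 with annotation M21, per the text deposited beside them. The aligner and counter were not given in the sources used here. Columns hold both strands, sense and antisense, as read from the values; 4 rows name no gene and stayed out of totals and tests (unmapped reads were 14.9% and 13.8%, reads in no miRNA gene 7.09% and 5.29%). Assigned sense reads were 36.5% and 38.1% of all reads.

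All 2202 identifiers matched GENCODE M21, and RefSeq hairpins had the same positions and bases. CPM used sense reads. The floor is 3 counts. Intervals are exact (95%). Tests ran in Python 3.11.15 with scipy 1.17.1, and scaling used edgeR 4.0.16 and DESeq2 1.42.0. The library comparison was tried on counts simulated with counting error alone, so that check does not cover spread between libraries. edgeR's quasi-likelihood test needs a contrast and was not used. Hairpins sharing 22 nt on either strand with a hairpin elsewhere were marked.

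Named are the 6 members, genes opposite them, the 2 nearest in level, other genes with a member's seed and markers of cell types. From 2 lists, examples at a mean of 1000 CPM or more and those called at 100 CPM or more are named. Members and lists were chosen with earlier results of these data known.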

Additional observations from a re-analysis of the deposited data

Results flagged for a closer look

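Signal outside the sense counts of the 6 genes was found in the antisense column at Mir24-1, with 55 reads in library 1 and 5 reads in library 2, above the 3 reads that a count of 0 allows. Mir3074-1 is annotated there, and the difference between these libraries was larger than counting error. Reads mapping to several places were a second such signal, at 2273922 in library 1 and 2098983 in library 2. They were not traced to a locus, so how many carry miR-24-3p is unknown. With 1 group of 2 libraries, outlying samples and differences between groups were not tested.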

How the results depend on the processing

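Over 167 alternative values, none changed direction, but levels, shares and counts of calls have no direction to change. Changing the fold threshold or the count filter also leaves the log2 ratios between libraries as they are. Division by hairpin length, which put Mir24-1 above Mir24-2 in library 2, was not among these alternatives. Of 36 alternatives for single levels, 12 moved by more than 1 SD. Those that leave out 1 of 2 libraries could not do so. The SD of Mir23b was small (118 CPM), so its shift from 57952 to 59122 CPM without genes sharing 22 nt counted as a move. For the ratios between hairpins or clusters the alternatives test little, since denominators cancel, counting both strands leaves the mir-23 and mir-27 counts as they are, and leaving out 1 of 2 libraries always stays within 1 SD. The joint share of the clusters (10.7%) was 13.9% with both strands together, 4.00% of all reads and 12.5% without the most abundant gene. The chromosome 8 cluster was at 5.68% and 1.64% in the first 2 of these settings, and the chromosome 13 cluster at 8.21%, 2.36% and 7.39% in all 3. Leaving out a replicate gave 9.99% to 11.5% for both clusters, 3.53% to 5.28% on chromosome 8, 6.20% to 6.46% on chromosome 13 and 0.23 to 0.87 for the log2 ratio between clusters. The 6 genes had 2 calls with TMM and 2 with DESeq2 size factors, 4 at 1.5-fold and 5 with no fold threshold, against 0. Of all tested genes 59 were called, 39 with 50 or more reads summed (22 of them higher in library 1), 105 at 1.5-fold (35 higher in library 2, 70 in library 1) and 186 without a fold threshold (61 and 125). The fold threshold and the count filter change the counts by construction, and the cause of the scaling shift was not tested. Counting both strands gave no ratios for the mir-24 genes, which were at 0, and the comparison of libraries has no value without a replicate. No paired analysis was possible because there is 1 group. Depth limits the mir-24 genes most, at 151 to 466 reads.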
